A study of Mus musculus with 3 samples.

Results

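Interferon-response and antigen-presentation genes were examined in 3 RNA-sequencing libraries of C2C12 cells, an immortalised mouse myoblast line that fuses into myotubes in low serum. The members were the rows of a deposited table of reads per gene whose symbol stood in a list of 31 genes, of which 29 had a row among the 20162 of the table. Expression of Cxcl10, a chemokine, and of H2-D1, an MHC class I heavy chain, was not analysed here, and both entered only the promoter search. All 3 cell populations had been infected with a lentivirus that expresses a short hairpin RNA (shRNA), were kept under puromycin and were differentiated for 7 days in horse serum. The hairpin was a control sequence in 1 population and a sequence against Tead4, a DNA-binding factor of muscle and other tissues, in the others, called shRNA A and shRNA B. These were infected populations and not clones, with 1 library each, so the A and B libraries are repeats of the knockdown with different hairpins.

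Interferons are secreted proteins that warn cells of infection. Type I interferon receptors activate the JAK kinases Jak1 and Tyk2, and transcription factors that include Stat2 and Irf9 then bind the interferon-stimulated response element (ISRE) of their target genes. Those targets include antiviral effectors, sensors of viral RNA and the machinery that cuts proteins into peptides and shows them on MHC class I molecules. Skeletal muscle fibres are known for low surface levels of MHC class I, which rise in inflammatory muscle disease.

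The libraries held 16412139 counted reads for the control shRNA, 19918954 for shRNA A and 15594305 for shRNA B. Tead4 had 1256, 397 and 170 reads in these libraries, and its edgeR log2 fold change (SE 0.27) was -2.35, with a quasi-likelihood adjusted p of 2.82e-06. By hairpin, the log2 ratio of Tead4 to the control was -1.99 for shRNA A and -2.86 for shRNA B. Muscle markers were abundant, with 1775 to 113091 reads over 10 genes and 3 libraries. Of these, 4 were lower with the Tead4 shRNAs, against 4.48% of all tested genes, and 0 higher, against 5.34%. The median over the 10 was -0.58 (log2 fold change). Those lower were the myosin heavy chain Myh3 (-1.63), the regulator Myog (-1.44), the troponin Tnnt3 (-1.15) and the creatine kinase Ckm (-1.06). The regulator Myod1, named after its values were seen, went the other way without being called (0.71, SE 0.23). It had 1775 control reads against 3563 (A) and 2913 (B). In bulk RNA, fewer cells of a type and less RNA per cell cannot be told apart, and the part of this shift in the values below was not tested.

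Among the tested members, edgeR called Ifih1, Bst2 and Eif2ak2 higher with the Tead4 shRNAs and none lower. Of these calls, only that of Bst2 also held with DESeq2. Ifih1 had 7 control reads and reached the test only through its knockdown libraries. Ifih1 (the RNA sensor MDA5) was 6.39-fold higher with shRNA A and 5.09-fold with shRNA B, Bst2 (tetherin, which holds budding virus at the cell surface) 3.22-fold and 3.11-fold, and Eif2ak2 (PKR, a kinase that stops translation on double-stranded RNA) 1.87-fold and 1.70-fold. The transcription factors Irf1, Irf7, Irf9 and Stat2 stood below the control in both libraries, without passing the test. Of all tested genes, 37.8% stood below the control in both. Several classic response genes (Rsad2, Mx1, Oas2, Oasl1) had at most 1 read in each library.

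Calls rest on edgeR's quasi-likelihood test of both Tead4 shRNA libraries against the control, adjusted over all 14478 tested genes with a threshold of 0.05. By that rule 3 of 19 tested members were higher, against 5.34% of all tested genes, and 0 of 19 were lower, against 4.48%. Ifih1, among the 3, had 7 control reads, under the filter's minimum count of 10, and reached the test only through its knockdown libraries. At an unadjusted p under 0.05, 5 members were higher, against 11.9% of tested genes, and 0 lower, against 9.78%. DESeq2 called 1 member higher (Bst2), against 3.09% of tested genes, and 0 lower, against 2.58%. With limma-voom 2 members were higher (Bst2 and Eif2ak2), against 4.76% of tested genes, and 0 lower, against 4.69%. A likelihood-ratio test with the dispersion of all 3 libraries as 1 group called 0 members and 0 genes overall. That dispersion counts the difference between knockdown and control as spread. With no gene passing, the adjusted p of this test sets no member apart. At an unadjusted p under 0.05 it gave 540 genes and 1 member. The design has 1 residual degree of freedom, the labels name no second culture of any hairpin, and the p-values reflect the spread between the A and B libraries alone, which may be technical. For each gene that spread is moderated over all tested genes (20.9 prior degrees of freedom), so it is mostly not the gene's own.

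The median log2 fold change was 0.41 over the 19 tested members and 0.02 over all tested genes. For shRNA A the members' median log2 ratio to the control was 0.43, and for shRNA B it was 0.21. Both shRNA libraries lay above the control library for 12 of 19 members, against 39.7% of tested genes, and both lay below it for 7 of 19 (Irf1, Irf7, Irf9, Stat2, Ifit1, Isg15 and Ifi35), against 37.8%. Both ratios were at least 2-fold higher, with 95% exact counting intervals that exclude no change, for 4 of 19 members (Ifih1, Bst2, Ifit3 and Gbp2), against 4.62% of tested genes, and at least 2-fold lower for 0 of the tested members, against 3.10%. Members that reached the test only through a higher knockdown library (Ifih1 and Gbp3) are part of these counts and of the calls above. The counts therefore describe the tested members and not the whole list.

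**Figure D1:**
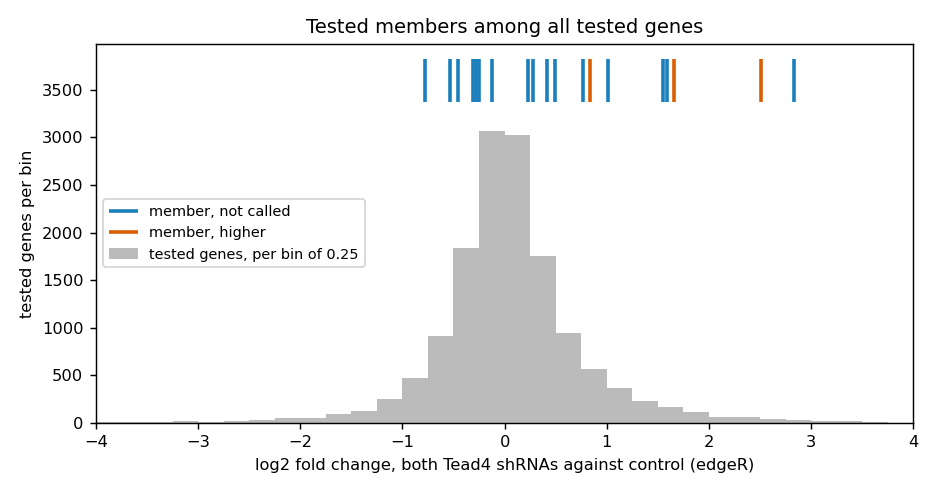
Histogram of edgeR log2 fold changes of the tested genes in bins of 0.25 (x axis from -4 to 4), with a vertical line for each of the 19 tested members, orange where called higher. The members run from -0.78 (Irf7) to 2.83 (Gbp3), and 3 of them are called.

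Promoter sequences from RefSeq (GRCm38.p6, 250 bases before to 50 after each start) were found for 27 of the 31 listed genes. They were searched on both strands for TTTCNNTTTC, a core of the response element that reads GAAANNGAAA on the other strand. It was present for 14 of the 27 genes and in 3.99% of 27025 genes with such a promoter. Among members with a promoter, it stood in 11 of 19 tested ones and in 3 of 8 that were not tested. All 4 members that were at least 2-fold higher in both libraries held a match, and their sequences are shown for that reason, 5′ to 3′ on the gene's strand, with the matches in capitals. A match is a description of these letters and not evidence of binding.

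Those of Bst2 (minus strand, chr8:71537473-71537722), Ifit3 (plus strand, chr19:34583279-34583528) and Gbp2 (plus strand, chr3:142620413-142620662) cover the 250 bases before the start. The match of Ifih1 lies after the start, and 28 bases around it are shown (minus strand, chr2:62646206-62646233).
Bst2: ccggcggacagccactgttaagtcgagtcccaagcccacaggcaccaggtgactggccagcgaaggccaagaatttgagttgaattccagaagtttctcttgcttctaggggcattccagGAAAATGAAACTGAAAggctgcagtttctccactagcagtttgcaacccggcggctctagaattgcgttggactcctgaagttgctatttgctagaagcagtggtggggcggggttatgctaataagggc
Ifit3: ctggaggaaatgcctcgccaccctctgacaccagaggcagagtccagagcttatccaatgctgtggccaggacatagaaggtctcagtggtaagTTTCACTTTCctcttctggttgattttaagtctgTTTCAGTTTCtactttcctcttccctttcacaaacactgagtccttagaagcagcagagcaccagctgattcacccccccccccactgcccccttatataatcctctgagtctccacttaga
Gbp2: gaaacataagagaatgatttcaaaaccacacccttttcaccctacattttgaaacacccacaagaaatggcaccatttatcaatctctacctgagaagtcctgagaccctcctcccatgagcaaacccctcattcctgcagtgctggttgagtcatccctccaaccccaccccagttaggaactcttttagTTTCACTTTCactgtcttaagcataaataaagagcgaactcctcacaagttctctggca
Ifih1: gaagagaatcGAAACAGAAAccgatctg

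Matches also stood in promoters of members with few or no reads. Isg15 (minus strand, chr4:156200859-156200912), with 3 overlapping matches, and Rsad2 (minus strand, chr12:26456547-26456588), with 1, are shown beside them and were chosen after their values were seen.
Isg15: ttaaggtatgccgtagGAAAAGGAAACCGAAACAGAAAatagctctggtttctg
Rsad2: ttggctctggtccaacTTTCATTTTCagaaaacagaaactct

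The other tested genes with a match were Eif2ak2, Ddx58, B2m, Gbp3, Ifit1 and Stat2, and those not tested were Oas1a and Cxcl10. The TEAD motif GGAATG, searched on both strands, was found for Bst2 and Gbp2, 2 of 27 members, and in 16.6% of all genes with a promoter. In Bst2 its first base is at position -138 counted from the start, and it overlaps a gamma-activated sequence, the letters TTCNNNGAA, an element known from genes that answer interferon gamma. That sequence was found for 7 of 27 members (Bst2, Eif2ak2, Ifi35, Ifit2, Irf1, Oas1a and Psmb8) and in 9.55% of genes.

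The RNA sensors Ddx58 (RIG-I) and Ifih1 recognise viral RNA in the cytoplasm and start interferon production. Ifih1 had 7 control reads against 56 (A) and 35 (B), which is 0.44, 2.78 and 2.22 CPM (the depth-scaled count, on the scaled library size). Both knockdown libraries lay well above the control. The log2 ratios were 2.67 (95% exact interval 1.54 to 4.05) and 2.35 (1.16 to 3.76), and the log2 fold change was 2.51 (SE 0.74, edgeR adjusted p = 0.0324). This call rests on 7 control reads and ended with DESeq2 (adjusted p = 0.173) and limma-voom (adjusted p = 0.0806). It also ended with the likelihood-ratio test (adjusted p = 0.885), which called no gene at all. Ddx58 had 205, 430 and 228 reads, or 12.8, 21.4 and 14.5 CPM. Only its shRNA A library stood apart, with a log2 ratio of 0.74 (0.50 to 0.99) against 0.18 (-0.10 to 0.46) for shRNA B, and Ddx58 was not called (log2 fold change 0.49, SE 0.29).

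The transcription factors carry the signal from receptor to gene. Irf1, a target of interferon gamma that switches on MHC class I genes, had 609 control reads against 608 (A) and 392 (B), which is 37.9, 30.2 and 24.9 CPM. Stat2, which carries the type I signal, had 487, 540 and 346 reads (30.3, 26.8 and 21.96 CPM). Its partner Irf9 had 170, 182 and 137 (10.6, 9.05 and 8.69 CPM), and Irf7, which amplifies interferon production, had 24, 17 and 14 (1.49, 0.85 and 0.89 CPM). For each of these 4 genes the control library was the highest on the CPM scale, as it was for 37.8% of all tested genes. None was called, against 5.34% of tested genes higher and 4.48% lower. At an unadjusted edgeR p under 0.05 there were 0 of 4, against 11.9% of tested genes higher and 9.78% lower. The log2 fold changes were -0.46 (SE 0.24) for Irf1, -0.31 (SE 0.24) for Stat2, -0.25 (SE 0.31) for Irf9 and -0.78 (SE 0.76) for Irf7. The counting intervals excluded no change for Irf1 with both hairpins (-0.49 to -0.16 and -0.80 to -0.42) and for Stat2 with shRNA B (-0.67 to -0.26).

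Antiviral effectors include the surface protein Bst2 and the kinase Eif2ak2, both of which were called. Bst2 had 91 control reads against 367 (A) and 278 (B) (5.67, 18.2 and 17.6 CPM). The knockdown libraries were close to each other and far from the control. The log2 ratios were 1.69 (1.35 to 2.03) and 1.64 (1.29 to 2.00), with a log2 fold change of 1.66 (SE 0.30, edgeR adjusted p = 8.96e-04). DESeq2 gave an adjusted p of 0.00299 and limma-voom one of 0.00200. The call ended with the likelihood-ratio test (adjusted p = 0.885), which called no gene at all.

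Eif2ak2 had 309, 723 and 517 reads (19.2, 35.9 and 32.8 CPM), again with both knockdown libraries near each other. Its log2 ratios were 0.90 (0.71 to 1.10) and 0.77 (0.56 to 0.98), and its log2 fold change was 0.84 (SE 0.25, edgeR adjusted p = 0.0324). DESeq2 ended this call (adjusted p = 0.131), as did the likelihood-ratio test that called no gene at all (adjusted p = 0.885).

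The Ifit proteins bind foreign RNA and block its translation, and 3 of their genes are members. Ifit3 had 18 control reads against 83 (A) and 41 (B) (1.12, 4.13 and 2.60 CPM), with log2 ratios of 1.88 (1.13 to 2.70) and 1.21 (0.38 to 2.10). It was not called (log2 fold change 1.59, SE 0.58, edgeR adjusted p = 0.0910), although it passed when no filter on low counts was applied (adjusted p = 0.0316). Of the 72-base windows of Ifit3, the read length of these libraries, 42.3% also occur in its neighbour Ifit3b in GENCODE M21, so its count is uncertain. Ifit2 had 228, 385 and 294 reads (14.2, 19.1 and 18.7 CPM) and log2 ratios of 0.43 (0.19 to 0.67) and 0.39 (0.14 to 0.65), and was not called (log2 fold change 0.41, SE 0.26). Ifit1 had only 16, 9 and 15 reads, and neither counting interval excluded no change.

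Oasl2, a relative of the 2′-5′ oligoadenylate synthetases that sense double-stranded RNA, had 15, 42 and 17 reads (0.93, 2.09 and 1.08 CPM). Its shRNA A library alone was high, with log2 ratios of 1.16 (0.28 to 2.12) and 0.21 (-0.88 to 1.31). It was not called (log2 fold change 0.77, SE 0.75). Isg15, a ubiquitin-like protein that is attached to other proteins in the response, had 14, 16 and 10 reads, and neither interval excluded no change (-1.26 to 1.01 and -1.79 to 0.82).

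**Figure D2:**
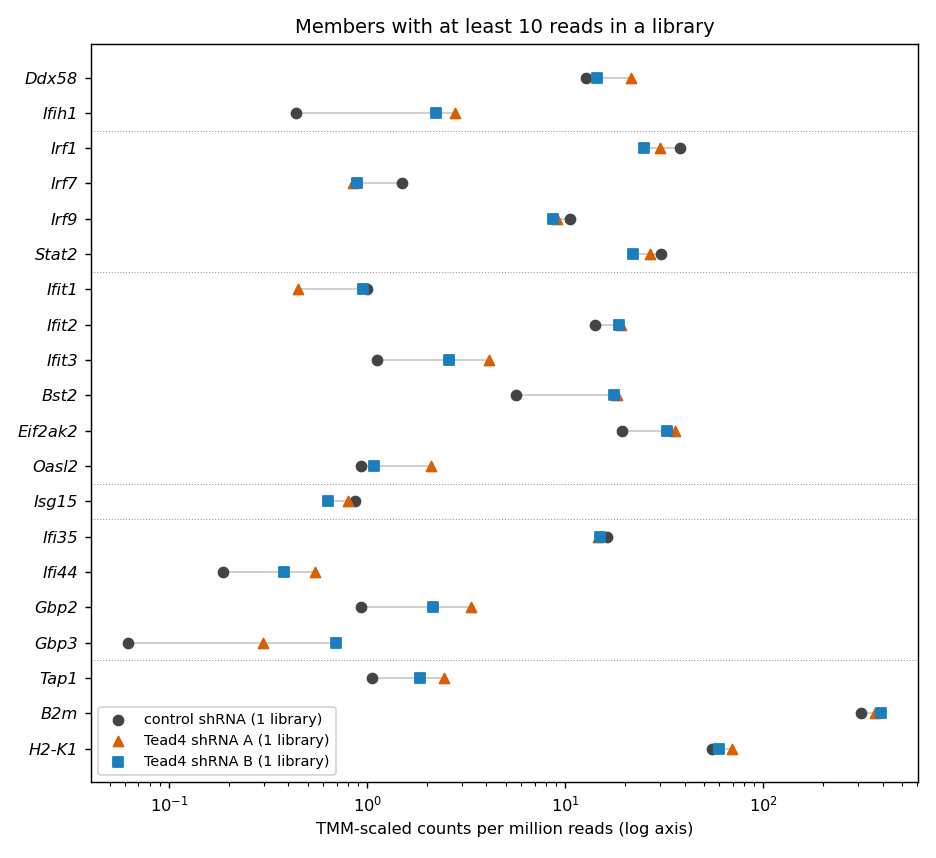
CPM (log axis) in each of the 3 libraries for the members with at least 10 reads in a library, grouped by role with dotted lines. The control library (grey circle) is the highest point for Irf1, Irf7, Irf9, Stat2, Ifit1, Isg15 and Ifi35, and the lowest for the other genes plotted.

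Guanylate-binding proteins are interferon-induced GTPases that attack the membranes of intracellular pathogens. Gbp2 had 15 control reads against 67 (A) and 34 (B) (0.93, 3.33 and 2.16 CPM). Both knockdown libraries were higher, with log2 ratios of 1.83 (1.01 to 2.75) and 1.21 (0.29 to 2.19), but it was not called (log2 fold change 1.55, SE 0.63, edgeR adjusted p = 0.137). Gbp3 had 1, 6 and 11 reads, and only the interval for shRNA B excluded no change (0.70 to 8.91). Ifi35, an interferon-induced leucine zipper protein, had 260, 295 and 236 reads (16.2, 14.7 and 15.0 CPM), and both of its intervals included no change. Ifi44 was not tested at 3, 11 and 6 reads.

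The genes of peptide supply and MHC class I were unequal in level. B2m, the invariant light chain of class I molecules, was the most abundant member per kilobase of merged exon length, at 363 CPM per kilobase in the control against 425 (A) and 456 (B). The order on this scale is by the mean of the 3 libraries. The heavy chain H2-K1 followed at 18.8, 23.6 and 20.4, then Bst2 at 6.28, 20.2 and 19.5. The range of Bst2 overlaps that of H2-K1. In the control library alone, Bst2 lay below Ifi35 (9.38) and Irf1 (9.54). The next places (Ifi35, Irf1, Eif2ak2, Stat2 and Ifit2) had overlapping ranges from neighbour to neighbour. Tap1, a subunit of the pump that brings peptides into the reticulum, stood at 0.19, 0.44 and 0.34.

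For B2m the reads were 5009, 7346 and 6174 (312, 365 and 392 CPM). Its depth gave narrow counting intervals, with log2 ratios of 0.23 (0.18 to 0.28) and 0.33 (0.28 to 0.38). It was not called (log2 fold change 0.28, SE 0.24, edgeR adjusted p = 0.569). That SE draws on the spread of all tested genes. The log2 ratio of A to B for B2m itself was -0.10 (-0.15 to -0.05). H2-K1 had 887, 1394 and 945 reads (55.2, 69.3 and 60.0 CPM) and was not called (log2 fold change 0.23, SE 0.22). C2C12 cells come from a C3H mouse, whose MHC alleles differ from those of the reference genome, and the effect on the count of H2-K1 was not tested. Tap1 had 17, 49 and 29 reads (1.06, 2.44 and 1.84 CPM) and log2 ratios of 1.20 (0.38 to 2.09) and 0.80 (-0.11 to 1.75), and was not called (log2 fold change 1.01, SE 0.65). Its exons overlap those of Psmb9 on the other strand in GENCODE M21, and the library kit does not mark strand. Exons of Irf1, Irf7, Eif2ak2, Ifi35, Gbp2, Psmb8, Oasl1 and Usp18 also overlap another gene on the other strand. Those of Irf9 overlap Rnf31 on the same strand. The effect of these overlaps on the counts was not tested. Psmb8 and Psmb9 are catalytic subunits of the immunoproteasome that interferon gamma induces. They had few counted reads, at 1, 4 and 0 for Psmb8 and 1, 0 and 1 for Psmb9. The identifier of the Psmb9 row is absent from GENCODE M21, so its shared windows were not checked. Of the 72-base windows of Psmb8, 10.2% also occur in Gm20496. The effect on these low counts was not tested. The constitutive counterparts Psmb5 (1724, 1745 and 1483 reads, named after its values were seen) and Psmb6 (1972, 2258 and 2330 reads) were well covered in the same libraries.

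**Figure D3:**
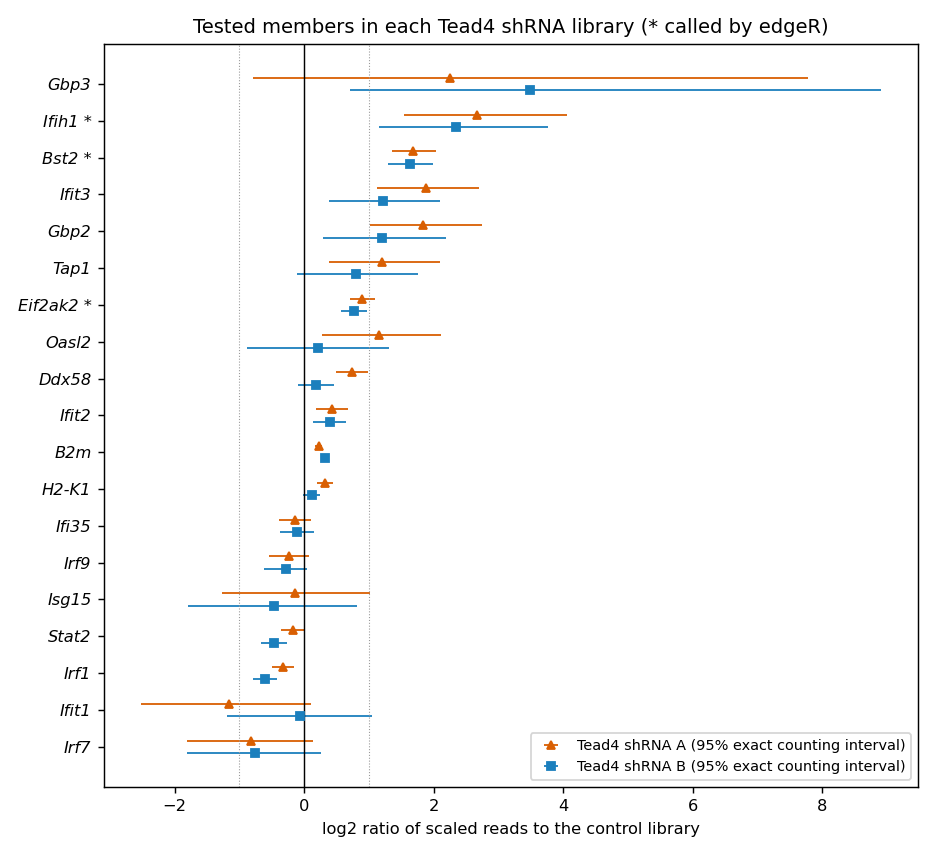
Log2 ratio of scaled reads to the control library for each of the 19 tested members, with 95% exact counting intervals, for shRNA A (orange triangles) and shRNA B (blue squares), ordered by edgeR log2 fold change; an asterisk marks a called gene and dotted lines mark 2-fold. Both intervals lie right of 0 for Ifih1, Bst2, Ifit3, Gbp2, Eif2ak2, Ifit2 and B2m, and both lie left of 0 for Irf1.

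In each hairpin's own comparison, which shares the control library with the other, shRNA A had 11 of 19 members with an interval above no change, against 32.9% of tested genes, and 1 below, against 32.5%. For shRNA B these were 8 of 19 members above, against 29.7%, and 2 below, against 28.0%. Set against each other, shRNA A was above shRNA B for 7 of 19 members (Ddx58, Irf1, Stat2, Ifit3, Oasl2, Gbp2 and H2-K1), against 25.4% of tested genes, and below it for 1, B2m, against 25.3%. The widest of these differences by log2 ratio were those of Oasl2 (0.95, interval 0.11 to 1.86) and Ifit3 (0.67, 0.11 to 1.24). Each compares 1 library with 1 library and has no replicate check.

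Of the 29 members in the table, 10 were not tested, and 9 of those had fewer than 10 reads in every library. Oas2 had 0 reads in all 3, which allows up to 0.187 CPM in the control, 0.149 for A and 0.190 for B (3 counts each, counting error only). Rsad2 (viperin, which makes a chain-terminating nucleotide) had 0, 0 and 1 reads. Mx1, a GTPase that blocks influenza virus, and Oasl1 each had 0, 1 and 0, and Oas1a had 2, 0 and 0. Usp18, the protease that removes Isg15, had 1, 4 and 0 reads, and Mx2, a GTPase related to Mx1, had 8, 2 and 1. With 0.20-fold (A) and 0.13-fold (B) the control level, Mx2 was at least 2-fold lower in both libraries by the rule used above, from which it was absent because it was not tested. Its intervals on the log2 scale were wide (-5.60 to -7.80e-05 and -8.44 to -0.07). No difference between libraries was detectable at this depth for the others of these genes. Of the 72-base windows of Oas1a, 48.5% are shared with Oas1g.

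Upstream of the members, the interferon genes with a row had few reads or none, and the receptors were well covered. Of 18 listed interferon genes, 3 had a row: Ifng with 3 control reads against 6 (A) and 5 (B), and Ifna13 and Ifna14 with 0 throughout. The type I receptor chains Ifnar1 (953, 1305 and 830 reads) and Ifnar2 (462, 516 and 354) and the gamma receptor chains Ifngr1 (539, 551 and 451) and Ifngr2 (1002, 913 and 825), named after their values were seen, were not called. Of 8 tested receptors and kinases, 1 rose, against 5.34% of all tested genes, and 1 fell, against 4.48%. Jak2, which serves the gamma receptor, rose from 707 control reads to 1731 (A) and 1010 (B), by 0.77 on the log2 scale (SE 0.24, edgeR adjusted p = 0.0429). Tyk2 fell by 0.81 on the log2 scale (SE 0.22, adjusted p = 0.0181), from 1184 reads to 892 and 626.

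Among 12 tested signal transducers and negative regulators, edgeR called 0, and 1 had an unadjusted p under 0.05. Over all tested genes, 11.9% were higher and 9.78% lower at that unadjusted p. The rule for named genes gave Ptpn11 (0.01 on the log2 scale, SE 0.24), a phosphatase, and Stat3 (0.30, SE 0.24). Of 16 tested genes that sense foreign nucleic acid or pass on that signal, 1 rose and 0 fell, against 5.34% and 4.48% of tested genes. The riser was Tlr3, the endosomal receptor of double-stranded RNA, with 31 control reads against 124 (A) and 111 (B). Tlr3 rose by 1.77 (SE 0.44, edgeR adjusted p = 0.0103). The adaptors Mavs (0.20, SE 0.24) and Tmem173 (STING; 0.39, SE 0.32), named after their values were seen, were not called.

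Of 51 further interferon-stimulated genes that were tested, the test called 5 higher, against 5.34% of all tested genes, and 2 lower, against 4.48%. The median log2 fold change of the 51 was 0.32. Pml, the organiser of nuclear bodies, rose by 1.22 (SE 0.28), the secreted glycoprotein Lgals3bp by 1.09 (SE 0.27) and the lectin Lgals9 by 0.95 (SE 0.26). Zc3hav1 (ZAP, which degrades CpG-rich viral RNA) fell by 0.70 (SE 0.22). The others, named after their values were seen, were Gbp4, which rose by 2.29 (SE 0.41) from 39 reads to 179 and 236, the helicase Mov10, which rose by 1.60 (SE 0.42), and the inflammatory caspase Casp4, which fell by 2.13 (SE 0.34) from 241 reads to 60 and 61.

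Among 21 further tested genes of antigen processing and MHC class I, 1 rose, against 5.34% of all tested genes, and 1 fell, against 4.48%. The median log2 fold change of the 21 was 0.31. Tap2, the partner of Tap1 in the peptide pump, rose by 1.15 (SE 0.31, adjusted p = 0.0205), from 148 reads to 517 and 239. Tapbpl, a peptide editor of class I molecules, fell by 1.04 (SE 0.26, adjusted p = 0.0102), from 396 to 256 and 177. Of the 3 constitutive proteasome counterparts, edgeR called 0, and 0 had an unadjusted p under 0.05; Psmb7 (-0.16, SE 0.23) and Psmb6 (0.08, SE 0.23) were the most abundant by CPM.

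**Figure D4:**
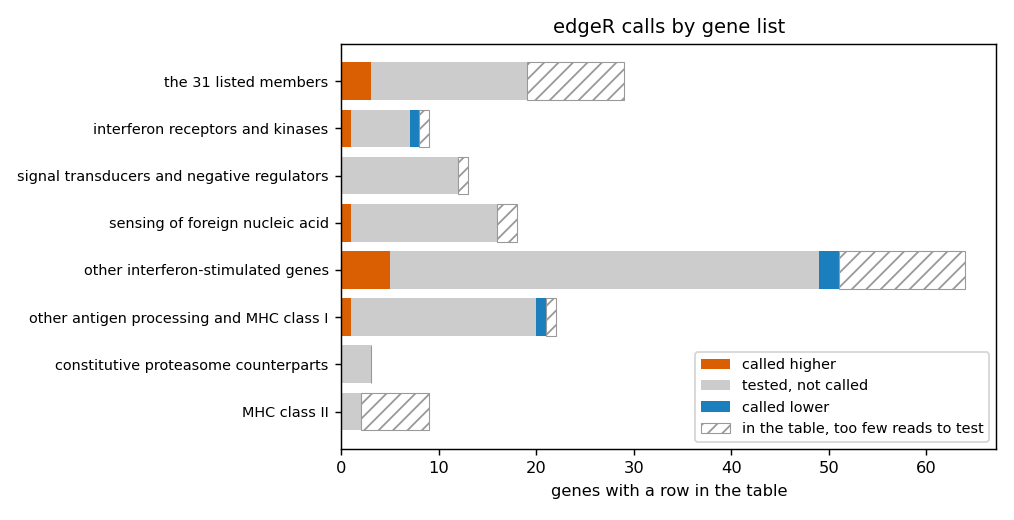
Number of genes with a row in the table for each list, split by edgeR call (orange higher, grey not called, blue lower) and with untested genes hatched. Most tested genes of every list were not called, with 3 of 19 members higher and 5 higher and 2 lower of 51 further interferon-stimulated genes. Over all tested genes, 5.34% were called higher and 4.48% lower.

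Markers of cells known for high levels of these genes were low where they had a row. Of 8 macrophage markers, 5 had a row, with a summed level of 2.68 CPM in the control, 4.28 for A and 4.95 for B. Cd68 had 22, 45 and 44 reads, Lyz2 4, 22 and 17, Itgam 13, 10 and 5, Csf1r 3, 9 and 9, and Fcer1g 1, 0 and 3. The summed level was higher in both knockdown libraries, 0 of 3 tested markers were called, and its part in the members' values was not tested. The endothelial markers Pecam1, Cdh5, Kdr and Tek summed to 0.93, 1.19 and 1.40 CPM. Of 6 dendritic cell and lymphocyte markers, only Itgax had a row, at 0 in all libraries, so that list was hardly covered.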

How the data were processed

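Polyadenylated RNA of 3 populations was sequenced as single-end reads, per the labels' protocols. The deposited table gives raw read counts per Ensembl gene, and beside them normalized values. The latter are a score that the authors made by multiplying each count by 1 factor per library (1.00, 0.801 and 1.02 for control, shRNA A and shRNA B) and rounding; 0 values differed from that product. Per the submitters' processing notes, TopHat 1.0.12, Cufflinks 0.8.2 and DESeq were used with mm9, without their order. How reads were counted, on which annotation, and what became of multiply mapping reads is not stated by the sources used here.

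The count model was edgeR 4.0.16 under R 4.3.3: filterByExpr, TMM factors of 0.979, 1.01 and 1.01, and the quasi-likelihood F test with Benjamini-Hochberg adjustment. The single control library borrows its spread from the others (biological coefficient of variation 16.4%). SE is the absolute log2 fold change over the square root of F. Ratios of scaled reads carry 95% exact (Clopper-Pearson) intervals, which cover counting error only. Alternatives were RLE, upper-quartile and total-count scaling, no filter, limma-voom (limma 3.58.1), DESeq2 1.42.0, the newer quasi-likelihood method, and a likelihood-ratio test with 1 dispersion group. The script was tested on simulated data.

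GENCODE M21 served for exon lengths, overlaps and shared windows of 72 bases, and RefSeq (GRCm38.p6) for promoters. Neither is the authors' build. The members, lists, design and alternatives were chosen with earlier results of these data known. All members are named. From each other list, the 4 called genes with the highest CPM are named, or 2 where none was called, along with genes marked as chosen after their values were seen. For 1 gene of the signal transducer list, which the counts of that list include, values are not reported here.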

Additional observations from a re-analysis of the deposited data

How the results depend on the processing

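None of the 19 tested members changed direction under any alternative run for it, and the median log2 fold change of all tested genes moved by less than 0.1. RLE, upper-quartile and total-count scaling and the newer quasi-likelihood method each called 3 members higher, against 4.32%, 5.15%, 6.29% and 5.49% of tested genes, and 0 lower, against 3.88%, 3.56%, 4.14% and 4.72%. These were the same 3 as in the main test, and without a filter on low counts 4 were called, against 5.36% of genes higher. DESeq2 called 1 member higher, with 448 genes higher and 374 lower over the table against 773 and 649. The likelihood-ratio test with all 3 libraries as 1 dispersion group called 0 members higher, 0 genes higher and 0 lower (540 genes and 1 member at an unadjusted p under 0.05). In that test the difference between knockdown and control counts as spread. The cause of the differences under the other settings was not tested. The members' median log2 fold change of 0.41 became 0.61 over the 28 members tested without a filter. Leaving out either shRNA library gave 0.19 to 0.43, as values with no test: 0.19 without shRNA A and 0.43 without shRNA B. The members at least 2-fold higher in both libraries numbered 4 under every scaling tried, the deposited normalized values included. No paired analysis was possible because the control group has 1 library. Depth limits the members under about 20 reads in the control library, among them Ifih1, Ifit3 and Gbp2.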

Other observations

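Genes of the MHC class II pathway, which muscle cells usually lack, were close to silent. Of 9 with a row, 4 were at 0 in all libraries (H2-Aa, H2-Eb2, H2-DMb1 and H2-DMb2), and Ciita, the master regulator of the pathway, had 0 control reads against 0 (A) and 1 (B). Both tested genes had low counts and more reads with the Tead4 shRNAs. Cd74, the invariant chain, had 20, 57 and 41 reads (log2 fold change 1.12, SE 0.59, edgeR quasi-likelihood adjusted p = 0.279), and H2-DMa had 22, 74 and 37 (1.14, SE 0.57, adjusted p = 0.254). Neither was called.

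Of the immunity-related GTPases, which act beside the guanylate-binding proteins, 5 had a row among the listed genes, and none of the 4 tested ones passed the edgeR threshold. Ifi47 had 20, 65 and 73 reads (log2 fold change 1.65, SE 0.54, adjusted p = 0.0574) and Irgm1 371, 822 and 574 (0.74, SE 0.24, adjusted p = 0.0570), Igtp had 79, 41 and 28 (-1.36, SE 0.47, adjusted p = 0.0696), and Irgm2 had 55, 59 and 40 (-0.32, SE 0.47, adjusted p = 0.778). Iigp1 was not tested, at 0, 10 and 3 reads. These genes were named after their values were seen.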
